A study of Homo sapiens with 5 samples.

Results

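The contrast described here sets the RNA library labelled as an HNRNPC knockdown (si-HNRNPC) against the input library of an RNA immunoprecipitation (RIP-INPUT), both from MDA-MB-231 cells. MDA-MB-231 is an established human line from a breast cancer that lacks hormone receptors and HER2 amplification and looks mesenchymal. A gene was a member of the contrast when both libraries listed it and its mean over the pair was at least 1 FPKM, a level scaled to gene length and to the fragments of the library. Of 12497 gene rows in the 5 deposited tables, 11066 were listed in both libraries and 10185 passed, among which WFDC2 lay just inside the limit at a mean of 1.00 FPKM and EFCAB7 just outside it. The log2 change is log2((FPKM + 1)/(input FPKM + 1)), so a positive value is a higher level in the labelled library, and the added 1 makes changes of low genes look smaller. Each gene is called higher or lower when it differed at least 2-fold on that scale. With 1 library a group there is no replicate, so this is a rule of size, no difference has a test and no SD or p-value is given.

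The si-HNRNPC library comes, by its label, from cells transfected with an HNRNPC siRNA, and the input is RNA of lysed cells with no named knockdown. The 3 other libraries are the RNA pulled down from lysate with an HNRNPC antibody on magnetic beads (the immunoprecipitate), a negative control (si-NC), and cells with a knockdown of LY6E-DT, a long noncoding RNA (si-LY6E-DT). All came from the same line, grown in L15 medium with serum, and the IgG pulldown named in the protocol is not analysed here. The treatment text crosses the silencers, giving each target that of the other. The transfection control of the series belongs by its title to LY6E-DT, and the input was lysed in RIP buffer, so the intended knockdown, transfection and the way the RNA was taken cannot be told apart in this contrast.

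HNRNPC is an abundant nuclear protein that coats nascent RNA and binds runs of uridine. It competes with the splicing factor U2AF2 for uridine tracts, and its loss is known to let cryptic exons, many of them in Alu repeats, enter mRNAs. Gene-level FPKM does not show such exons.

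Runs of uridine in 3′ untranslated regions are printed first because they are the kind of sequence HNRNPC binds. The lower genes shown led the ranking below the other 4 libraries, and the higher genes came from the ranking against the input. PCGF6, at −1.65, was not among the 15 genes furthest below the input. MYC, furthest above it, and CST1 and CST4, furthest below it, are not shown. Their 3′ untranslated regions held 37.6%, 20.2% and 19.7% uridine. The genes shown therefore do not represent the higher and lower genes. Each line gives a stretch of the annotated 3′ untranslated region around its longest run, on GRCh38, 5′ to 3′ in DNA letters, with the run in capitals. RAB8B, RND3 and PCGF6 were lower in the labelled library than in the other 4 libraries.
RAB8B, chr15:63265367-63265396 (plus strand): cctccttaaTTTTTTTTTTTTTggtaatta
RND3, chr2:150469635-150469664 (minus strand): atttttgggTTTTTTTTTTTTgttataatc
PCGF6, chr10:103303372-103303401 (minus strand): tgaacttgtaccTTTTTTTatactagcaac
TXNRD1, CDKN1A and PEA15 were among the genes furthest above the input.
TXNRD1, chr12:104348775-104348804 (plus strand): tctagggttgaaTTTTTTTcttttttctcc
CDKN1A, chr6:36686015-36686044 (plus strand): agagtgctgggcaTTTTTattttatgaaat
PEA15, chr1:160214637-160214666 (plus strand): ccatgtctgcccTTTTTTgtggtgtctagc
The longest runs of RAB8B and RND3 held 13 and 12 bases, while that of PCGF6 held 7, as many as that of TXNRD1. Runs of at least 5 bases numbered 6.49 per kilobase in RAB8B, 6.70 in RND3 and 5.41 in PCGF6, against 5.91 in TXNRD1, 1.95 in CDKN1A and 1.59 in PEA15. A run is a description of sequence, not a site of binding. The relation across all genes is given further on.

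The libraries differed in ways that touch every value. The tables listed between 11306 and 11755 genes each, their FPKM summed to between 157407 and 272563, and none gives its depth. The share of the summed FPKM that came from mitochondrially encoded mRNAs was 29.8% in the input but 9.92% in the labelled library, 9.05% in the immunoprecipitate, 7.20% in si-NC and 8.13% in si-LY6E-DT. Every gene was therefore also compared after each library was scaled up for the share of its summed FPKM held by mitochondrially encoded mRNAs. This is called rescaled below. That share is of length-scaled values and not of fragments, which are not known. The rescaled values are therefore approximate, and the size of the shift they make is uncertain. The 14 markers of MDA-MB-231 mix genes expected to be present with genes expected to be low, and 11 passed the limit, which alone does not bear out the label. Of those expected to be present, VIM was at 382 FPKM in the labelled library and 538 in the input. Of those expected to be low, ESR1, PGR and CDH1 were not listed. EPCAM, at 2.41 and 3.303 FPKM, ERBB2 and GATA3 were also expected to be low but passed the limit.

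HNRNPC itself checks the label. The gene (ENSG00000092199.17_4; chromosome 14, 21209136 to 21269494, minus strand, with positions of GENCODE 29 on GRCh38 here and below) was at 48.8 FPKM in the labelled library and 67.4 in the input, with 58.4 in the immunoprecipitate, 52.2 in si-NC and 40.1 in si-LY6E-DT. Its log2 change was −0.46, a ratio of 0.723, and after rescaling the log2 change was −0.82. As deposited, 16.8% of the genes tested had a change as low or lower, and 46.9% differed from the input at least as far in either direction. The mRNA was below the input but under 2-fold on both scales, close to its level in si-NC, and lower still in si-LY6E-DT. The level does not clearly bear out the label, and each direction given below belongs to the library as labelled.

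Against the input, 928 of 10185 genes were at least 2-fold higher, which is 9.11% of them, and 410 were lower, which is 4.03%. After rescaling the split turned around, with 518 higher, which is 4.92%, and 1028 lower, which is 9.77%, of the 10527 genes that then passed the same limit. The share of higher genes among those called went from 69.4% to 33.5%, and the median of all genes from 0.15 to −0.16. Where a named gene kept less than 2-fold after rescaling, both values are given. Some named genes under 2-fold as deposited became 2-fold lower, and only the deposited value is given for these below. Among them, rescaled, were ATF4 at −1.22, PRKACA at −1.21, IGFBP6 at −1.28, YTHDC1 at −1.16, IGFBP3 at −1.10 and CST3 at −1.05.

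**Figure D1:**
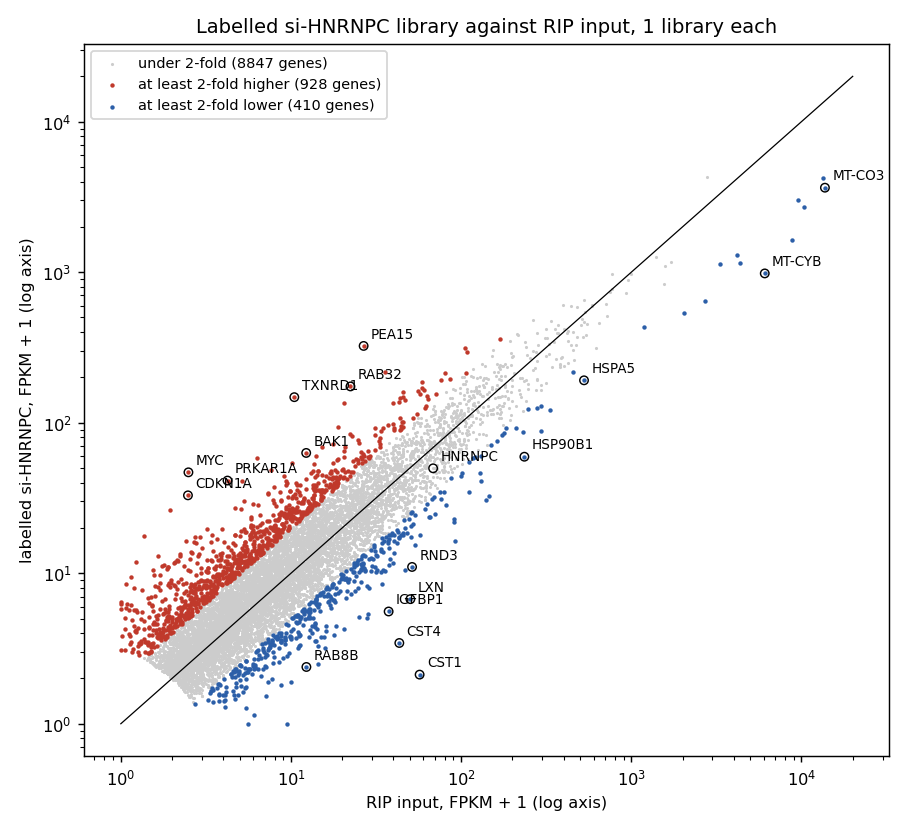
Each point is 1 of the 10185 genes, with FPKM + 1 on log axes, the RIP input on the x axis and the library labelled si-HNRNPC on the y axis, 1 library each. The line marks equal levels, and colour marks the 928 genes at least 2-fold higher (red) and the 410 at least 2-fold lower (blue). The mitochondrially encoded mRNAs form the group at the far right below equality.

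Genes were called from either side of the contrast. Of the 922 higher genes that all 5 libraries listed, the labelled library was the highest of the 5 in 500, or 54.2%, where it was highest for 25.4% of all genes tested. The input was the lowest of the 5 in 412 of them, or 44.7%, against 17.7% of all genes. Of the 394 lower genes listed in all 5, the input was the highest in 233, or 59.1%, against 15.8% of all genes, and the labelled library was the lowest in 148, or 37.6%, against 11.1%. The choice of higher and lower genes itself favours these extremes, so the shares describe the contrast and test nothing.

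Among the 15 genes furthest above the input, regulators of growth, redox balance and cell death stood beside signalling proteins and a mitochondrial enzyme, PDP1. The input was the lowest of the 5 libraries for 12 of the 15, and the labelled library the highest for 10. MYC (ENSG00000136997.17_3; chromosome 8, 127735434 to 127741434, plus strand), a transcription factor that drives growth and ribosome production, was at 45.8 FPKM in the labelled library and 1.496 in the input, with 34.3 in the immunoprecipitate, 34.9 in si-NC and 3.22 in si-LY6E-DT, a log2 change of 4.23. Its low levels were in the input and si-LY6E-DT. TXNRD1 (ENSG00000198431.15_3; chromosome 12, 104215779 to 104350305, plus strand), the cytosolic thioredoxin reductase, was at 147 FPKM in the labelled library and 9.46 in the input, with 203 in the immunoprecipitate, 109 in si-NC and 107 in si-LY6E-DT, a log2 change of 3.82. CDKN1A (ENSG00000124762.13_2; chromosome 6, 36676460 to 36687339, plus strand), the cyclin-dependent kinase inhibitor p21, was at 31.9 FPKM in the labelled library and 1.48 in the input, with 12.1 in the immunoprecipitate, 19.7 in si-NC and 17.5 in si-LY6E-DT, a log2 change of 3.73. For both genes the input alone was low.

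PEA15 (ENSG00000162734.12_3; chromosome 1, 160205337 to 160215376, plus strand), a phosphoprotein with a death effector domain that binds ERK, was at 323 FPKM in the labelled library and 25.7 in the input, with 18.2 in the immunoprecipitate, 21.99 in si-NC and 34.6 in si-LY6E-DT, a log2 change of 3.60. RAB32, a small GTPase of lysosome-related organelles and mitochondria, was at 173 FPKM in the labelled library and 21.4 in the input, with 7.35 in the immunoprecipitate, 28.7 in si-NC and 34.5 in si-LY6E-DT, a log2 change of 2.96. For these 2 genes the labelled library stood far above the other 4, and the input was not the lowest. PRKAR1A, a regulatory subunit of protein kinase A, was at 40.3 FPKM in the labelled library and 3.23 in the input, with 148 in the immunoprecipitate, 27.4 in si-NC and 25.2 in si-LY6E-DT, a log2 change of 3.28. DAG1, the dystroglycan that ties cells to laminin, was at 10.9 FPKM in the labelled library and 0.223 in the input, with 37.2 in the immunoprecipitate, 1.34 in si-NC and 13.7 in si-LY6E-DT, a log2 change of 3.28. PDP1, the phosphatase that activates pyruvate dehydrogenase, was at 11.95 FPKM in the labelled library and 0.656 in the input, with 127 in the immunoprecipitate, 6.03 in si-NC and 11.7 in si-LY6E-DT, a log2 change of 2.97. For PRKAR1A, DAG1 and PDP1 the immunoprecipitate was the highest library.

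API5, an inhibitor of apoptosis, was at 40.1 FPKM in the labelled library and 4.17 in the input, with 34.8 in the immunoprecipitate, 38.8 in si-NC and 15.5 in si-LY6E-DT, a log2 change of 2.99. CALM3, 1 of the genes that encode calmodulin, was at 135 FPKM in the labelled library and 19.6 in the input, with 81.1 in the immunoprecipitate, 62.8 in si-NC and 64.7 in si-LY6E-DT, a log2 change of 2.72. SZRD1 was at 56.96 FPKM in the labelled library and 5.34 in the input, with 11.6 in the immunoprecipitate, 22.5 in si-NC and 27.9 in si-LY6E-DT, a log2 change of 3.19. These 3 were lowest in the input and highest in the labelled library. TRIM14, an adaptor of antiviral signalling, was at 9.503 FPKM in the labelled library and 0.539 in the input, with 0.502 in the immunoprecipitate, 8.64 in si-NC and 7.36 in si-LY6E-DT, a log2 change of 2.77. SH3BP5L, an exchange factor for Rab11, was at 15.4 FPKM in the labelled library and 1.42 in the input, with 1.45 in the immunoprecipitate, 14.7 in si-NC and 13. in si-LY6E-DT, a log2 change of 2.76. The input and the immunoprecipitate were both low for these 2, while the other 3 libraries lay close together. DPY19L1, a C-mannosyltransferase of the endoplasmic reticulum, was at 10.1 FPKM in the labelled library and 0.745 in the input, with 66.7 in the immunoprecipitate, 14.1 in si-NC and 13.4 in si-LY6E-DT, a log2 change of 2.67. CENPO, a protein of the inner kinetochore, was at 10.3 FPKM in the labelled library and 0.782 in the input, with 3.57 in the immunoprecipitate, 5.13 in si-NC and 9.26 in si-LY6E-DT, a log2 change of 2.66. DPY19L1 was lower in the labelled library than in si-NC and si-LY6E-DT, and CENPO was close to si-LY6E-DT.

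The genes furthest below the input were led by secreted protease inhibitors. The input was the highest of the 5 libraries for 12 of these 15, and the labelled library the lowest for 7. CST1 (ENSG00000170373.8_2; chromosome 20, 23747553 to 23751268, minus strand), a secreted cystatin that inhibits cysteine proteases, was at 1.12 FPKM in the labelled library and 55.99 in the input, with 1.36 in the immunoprecipitate, 0.556 in si-NC and 0.278 in si-LY6E-DT, a log2 change of −4.75. CST4, another cystatin of the same cluster, was at 2.44 FPKM in the labelled library and 42.3 in the input, with 0.574 in the immunoprecipitate, 0.539 in si-NC and 0.551 in si-LY6E-DT, a log2 change of −3.65. CST2 was at 4.103 FPKM in the labelled library and 24.1 in the input, with 0.795 in the immunoprecipitate and no entry for si-NC and si-LY6E-DT, a log2 change of −2.30. The input alone was high for all 3. Their annotated transcripts are alike, with 94.7% of aligned bases identical between CST1 and CST4, 91.3% between CST1 and CST2 and 92.1% between CST2 and CST4, so the division of reads among them is uncertain. LXN, latexin, a carboxypeptidase inhibitor with a cystatin-like fold, was at 5.73 FPKM in the labelled library and 49.3 in the input, with 2.85 in the immunoprecipitate, 5.54 in si-NC and 4.93 in si-LY6E-DT, a log2 change of −2.90. Again the input stood apart, and the other 4 libraries lay between 2.85 and 5.73 FPKM.

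IGFBP1, a secreted protein that binds insulin-like growth factors, was at 4.57 FPKM in the labelled library and 36.5 in the input, with 6.55 in the immunoprecipitate, 6.11 in si-NC and 10.2 in si-LY6E-DT, a log2 change of −2.75. ESM1, the proteoglycan endocan, was at 1.51 FPKM in the labelled library and 13.5 in the input, with 9.96 in the immunoprecipitate and no entry for si-NC and si-LY6E-DT, a log2 change of −2.53. REEP6, a protein of the endoplasmic reticulum membrane, was at 2.88 FPKM in the labelled library and 16.9 in the input, with 1.04 in the immunoprecipitate, 1.41 in si-NC and 1.16 in si-LY6E-DT, a log2 change of −2.21. TMEM158, a membrane protein first described as induced by Ras, was at 29.6 FPKM in the labelled library and 139 in the input, with 29.2 in the immunoprecipitate, 15.3 in si-NC and 17.4 in si-LY6E-DT, a log2 change of −2.19. The input was the highest library for these 4. PPIG, a nuclear peptidyl-prolyl isomerase, was at 4.33 FPKM in the labelled library and 27.2 in the input, with 3.25 in the immunoprecipitate, 8.77 in si-NC and 9.56 in si-LY6E-DT, a log2 change of −2.41. RAE1, an mRNA export factor, was at 2.19 FPKM in the labelled library and 14.8 in the input, with 2.97 in the immunoprecipitate, 10.8 in si-NC and 12.9 in si-LY6E-DT, a log2 change of −2.31. MAPK1IP1L was at 4.07 FPKM in the labelled library and 26.8 in the input, with 6.85 in the immunoprecipitate, 14.3 in si-NC and 12.8 in si-LY6E-DT, a log2 change of −2.45. For these 3 the si-NC and si-LY6E-DT libraries lay between the input and the labelled library.

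RAB8B, a GTPase of vesicle transport to the cell surface, was at 1.38 FPKM in the labelled library and 11.3 in the input, with 124 in the immunoprecipitate, 10.8 in si-NC and 9.05 in si-LY6E-DT, a log2 change of −2.37. RND3, a small GTPase-like protein that restrains RhoA signalling, was at 10.01 FPKM in the labelled library and 50.5 in the input, with 119 in the immunoprecipitate, 43.1 in si-NC and 45.2 in si-LY6E-DT, a log2 change of −2.23. TFPI, the inhibitor of the tissue factor pathway of coagulation, was at 3.25 FPKM in the labelled library and 19.5 in the input, with 97.6 in the immunoprecipitate, 6.19 in si-NC and 6.799 in si-LY6E-DT, a log2 change of −2.27. The labelled library was the lowest for all 3 and the immunoprecipitate the highest. The input was close to si-NC for RAB8B and RND3.

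**Figure D2:**
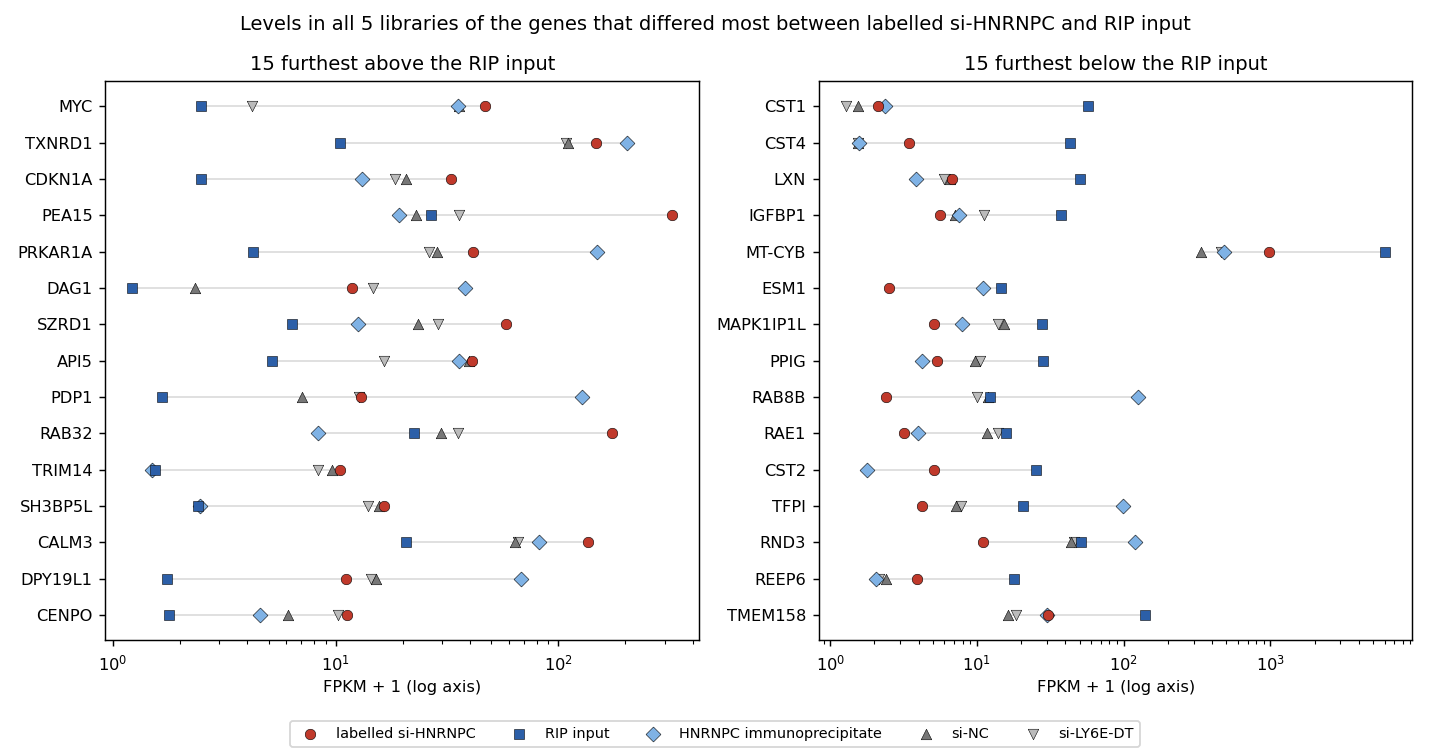
FPKM + 1 on a log axis of the 15 genes furthest above (left) and furthest below (right) the input, with 1 point for each of the 5 libraries and no point where a library lists no value. On the left the input is the lowest point for 12 genes, and on the right it is the highest for 12.

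Genes in which 1 library left the range of all the others show what was particular to each side of the contrast. Of 10335 genes listed in all 5 tables with a mean over them of at least 1 FPKM, FPKM + 1 in the labelled library was at least 2-fold above the highest of the other 4 in 126, or 1.22%, and at least 2-fold below the lowest in 32, or 0.31%. The input lay above the other 4 in 88 genes, or 0.851%, and below them in 204, or 1.97%. After rescaling, in comparisons chosen after the data were seen, these counts were 80 above and 53 below for the labelled library and 242 above and 144 below for the input. Without the immunoprecipitate, which was the highest or lowest library for many of these genes, 176 lay above and 89 below for the labelled library, and 137 above and 369 below for the input.

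PEA15 and RAB32 led the genes above the other 4. C4orf48 was at 82.6 FPKM in the labelled library and 21.1 in the input, with 1.12 in the immunoprecipitate, 20.4 in si-NC and 15.3 in si-LY6E-DT, a log2 change of 1.92. COX7A2L, a factor of respiratory supercomplex assembly, was at 34.4 FPKM in the labelled library and 8.87 in the input, with 8.45 in the immunoprecipitate, 7.81 in si-NC and 7.15 in si-LY6E-DT, a log2 change of 1.84. TPRG1L was at 37.3 FPKM in the labelled library and 10.2 in the input, with 5.2 in the immunoprecipitate, 8.49 in si-NC and 9.95 in si-LY6E-DT, a log2 change of 1.77. The other 4 libraries lay between 7.15 and 8.87 FPKM for COX7A2L, and the immunoprecipitate was the lowest for TPRG1L and C4orf48. HDHD3 was at 16.8 FPKM in the labelled library and 3.72 in the input, with 0.828 in the immunoprecipitate, 2.901 in si-NC and 3.19 in si-LY6E-DT, a log2 change of 1.92. MSRB1, a selenoprotein that reduces oxidized methionine, was at 18.5 FPKM in the labelled library and 4.98 in the input, with 0.725 in the immunoprecipitate, 4.58 in si-NC and 4.28 in si-LY6E-DT, a log2 change of 1.70. KCNAB2, a subunit of voltage-gated potassium channels, was at 19.4 FPKM in the labelled library and 5.32 in the input, with 1.23 in the immunoprecipitate, 0.529 in si-NC and 2.11 in si-LY6E-DT, a log2 change of 1.69. KCNAB2 was higher in both the labelled library and the input than in si-NC. OVCA2 and TM4SF19 also ranked among the first 10, but each shares exons with another coding gene, so their values are uncertain.

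RAB8B, RND3 and PCGF6 led the genes below the other 4. PCGF6, a Polycomb protein, was at 3.42 FPKM in the labelled library and 12.8 in the input, with 20.05 in the immunoprecipitate, 14.7 in si-NC and 19.1 in si-LY6E-DT, a log2 change of −1.65. SKP2, the F-box protein that marks p27 for degradation, was at 1.95 FPKM in the labelled library and 8.67 in the input, with 14.6 in the immunoprecipitate, 8.45 in si-NC and 7.81 in si-LY6E-DT, a log2 change of −1.71. BIRC3, an inhibitor of apoptosis that ubiquitinates RIPK1, was at 1.14 FPKM in the labelled library and 4.86 in the input, with 10.3 in the immunoprecipitate, 9.16 in si-NC and 15.5 in si-LY6E-DT, a log2 change of −1.45. For these genes the input lay below or near si-NC, and the labelled library was the low one. HEG1, a receptor of cell junctions, was at 6.97 FPKM in the labelled library and 23.9 in the input, with 61.7 in the immunoprecipitate, 36.5 in si-NC and 32.7 in si-LY6E-DT, a log2 change of −1.64. TWSG1, a secreted modulator of bone morphogenetic proteins, was at 9.47 FPKM in the labelled library and 30.9 in the input, with 147 in the immunoprecipitate, 39.7 in si-NC and 30.8 in si-LY6E-DT, a log2 change of −1.61. LITAF, a protein of endosomal membranes, was at 3.47 FPKM in the labelled library and 15.03 in the input, with 23.4 in the immunoprecipitate, 16.9 in si-NC and 12.5 in si-LY6E-DT, a log2 change of −1.84. The immunoprecipitate was the highest of the 5 for all of these but BIRC3. LYPLA1, an acyl-protein thioesterase, was at 4.58 FPKM in the labelled library and 13.8 in the input, with 43.3 in the immunoprecipitate, 17.02 in si-NC and 15.4 in si-LY6E-DT, a log2 change of −1.40. FBXO34 was at 2.27 FPKM in the labelled library and 13.5 in the input, with 7.51 in the immunoprecipitate, 12.5 in si-NC and 9.27 in si-LY6E-DT, a log2 change of −2.15. The immunoprecipitate was highest for LYPLA1, while for FBXO34 the input was.

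On the side of the input, the genes below all others included a mitochondrial enzyme and a mitochondrial carrier. The same ranking was applied to the input after its values were seen. GPD2, the mitochondrial glycerol-3-phosphate dehydrogenase, was at 8.76 FPKM in the labelled library and 0.576 in the input, with 42.9 in the immunoprecipitate, 9.71 in si-NC and 8.36 in si-LY6E-DT. SLC25A24, a mitochondrial carrier of ATP and phosphate, was at 9.92 FPKM in the labelled library and 0.893 in the input, with 14.3 in the immunoprecipitate, 39.1 in si-NC and 34.6 in si-LY6E-DT. For GPD2 the labelled library lay between si-NC and si-LY6E-DT, and for SLC25A24 far below both. PLEKHA2, which binds phosphoinositides, was at 6.99 FPKM in the labelled library and 0.202 in the input, with 25.8 in the immunoprecipitate, 6.29 in si-NC and 8.32 in si-LY6E-DT. NDST1, an enzyme of heparan sulfate synthesis, was at 8.73 FPKM in the labelled library and 0.695 in the input, with 8.24 in the immunoprecipitate, 20.9 in si-NC and 22.7 in si-LY6E-DT. TXNRD1, DPY19L1 and PRKAR1A, given above, were also among the first 10. The first 10 of the 88 genes above all others in the input were CST1, CST4, LXN, TMEM158, IFITM1 and the mitochondrially encoded MT-CYB, MT-ND4, MT-ATP6, MT-ND5 and MT-ND2, of which IFITM1, MT-ND4 and MT-ATP6 share exons with another gene.

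**Figure D3:**
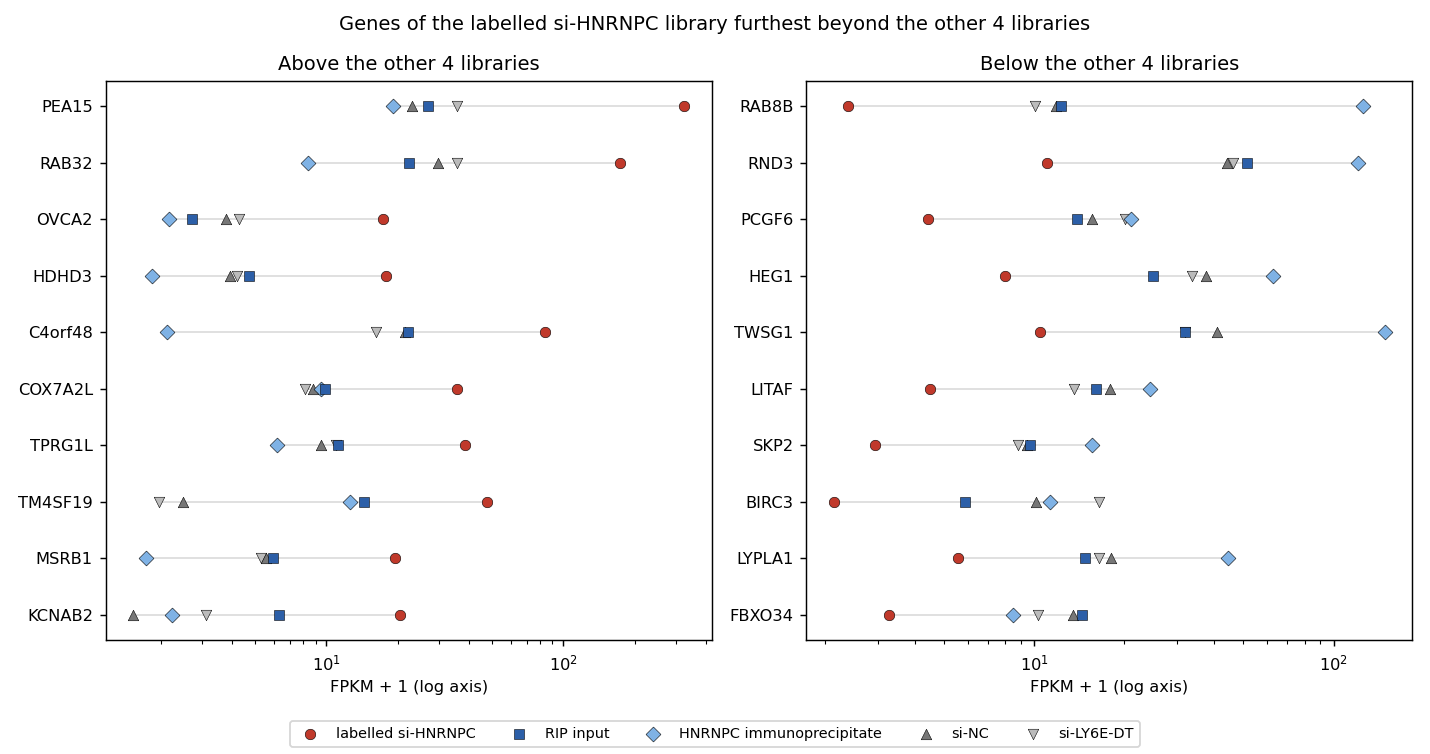
FPKM + 1 on a log axis in each of the 5 libraries for the 10 genes in which the library labelled si-HNRNPC lay furthest above (left) or furthest below (right) the other 4. PEA15 heads the left panel at 323 FPKM against at most 34.6 elsewhere, and RAB8B the right at 1.38 against at least 9.05.

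The gene groups follow by role, each with its count of members called and its median beside those of all genes, which are 9.11% higher, 4.03% lower and 0.15. Over the same 10185 genes rescaled, 5.09% were higher and 9.99% lower with a median of −0.16, and the rescaled counts of each list are to be read against these. Fewer cells of a type and less RNA per cell cannot be told apart in bulk RNA. Among U-tract and hnRNP proteins, the kin of HNRNPC, 3 of 36 were at least 2-fold higher and 2 lower, with a median log2 change of −0.10, and after rescaling 3 were higher and 8 lower with a median of −0.42. PTBP1, a repressor of splicing at pyrimidine tracts, was at 56.6 FPKM in the labelled library and 17.8 in the input, with 14.7 in the immunoprecipitate, 29.4 in si-NC and 35.7 in si-LY6E-DT, a log2 change of 1.61. PTBP3, its paralog, was at 5.14 FPKM in the labelled library and 0.1503 in the input, with 70.7 in the immunoprecipitate, 11.5 in si-NC and 9.004 in si-LY6E-DT, a log2 change of 2.42. PTBP1 was highest in the labelled library, and PTBP3 was near 0 in the input only. HNRNPA2B1, an hnRNP that packages nascent RNA, was at 85. FPKM in the labelled library and 177 in the input, with 24.3 in the immunoprecipitate, 145 in si-NC and 122 in si-LY6E-DT, a log2 change of −1.05. MATR3 had 2 rows that share exons and pointed in opposite directions, at −1.07 and 2.52, so its level is uncertain. U2AF2, the competitor of HNRNPC at uridine tracts, was at 105 FPKM against 68.6 in the input, and U2AF1 at 13.3 against 21., both under 2-fold.

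Among SR proteins and their kinases, 2 of 24 were at least 2-fold higher and 1 lower, with a median log2 change of 0.10, and after rescaling 0 were higher and 2 lower with a median of −0.25. CLK1, a kinase of SR proteins, was at 6.32 against 15.6 FPKM in the input, a log2 change of −1.18. SRRM2, a large splicing coactivator, was at 19.6 against 8.16 FPKM in the input, 2-fold higher as deposited but not rescaled, where its log2 change was 0.85. CLK1 was below the input and SRRM2 above it, and the median of the list was close to that of all genes. Among m6A writers, erasers and readers, 0 of 17 were at least 2-fold higher and 0 lower, with a median log2 change of 0.18, and after rescaling 0 were higher and 2 lower with a median of −0.16. METTL16, a methyltransferase of U6 RNA, was at 2.598 against 0.8498 FPKM in the input, a log2 change of 0.96. YTHDC1, the nuclear m6A reader, was at 7.17 against 13.4 FPKM in the input, a log2 change of −0.81. Among mRNA decay factors, 4 of 40 were at least 2-fold higher and 2 lower, with a median log2 change of 0.06, and after rescaling 4 were higher and 7 lower with a median of −0.21. PAN3, a subunit of a deadenylase, was at 7.27 against 0.598 FPKM in the input, a log2 change of 2.37. CNOT8, a catalytic subunit of CCR4-NOT, was at 14.8 against 3.58 FPKM in the input, a log2 change of 1.78. PAN3 was low in the input alone, at 0.598 FPKM against 5.601 in the next library.

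Loss of HNRNPC has been described as leading to double-stranded RNA and interferon signalling in some breast cancer lines, so the sensors and targets of that pathway were followed. Among these, 2 of 23 were at least 2-fold higher and 2 lower, with a median log2 change of 0.22, and after rescaling 2 were higher and 5 lower with a median of −0.02. ISG15, a ubiquitin-like protein induced by interferon, was at 135 FPKM in the labelled library and 41.9 in the input, with 5.66 in the immunoprecipitate, 39.3 in si-NC and 36. in si-LY6E-DT, a log2 change of 1.67. IFIT1, an interferon-induced protein that binds viral RNA, was at 8.04 FPKM in the labelled library and 2.19 in the input, with 0.385 in the immunoprecipitate, 3.08 in si-NC and 2.97 in si-LY6E-DT, a log2 change of 1.501. Both were highest in the labelled library. PSMB9, an interferon-inducible proteasome subunit, was at 1.23 against 3.75 FPKM in the input, a log2 change of −1.09. DDX58, which encodes the RNA sensor RIG-I, was at 8.65 against 11.03 FPKM, a log2 change of −0.32, and IFIH1, which encodes MDA5, was listed at 0.411 FPKM in the labelled library and had no entry for the input. IFITM1 was at 15.5 against 90.6 FPKM but shares exons with another gene.

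Genes of homologous recombination include several that are known to need HNRNPC in other cells. Among them, 2 of 22 were at least 2-fold higher and 0 lower, with a median log2 change of 0.22, and after rescaling 0 were higher and 0 lower with a median of −0.06. FANCE, a subunit of the Fanconi core complex, was at 16.7 against 7.59 FPKM in the input, a log2 change of 1.04 as deposited and 0.72 rescaled. BRCA1 was at 2.597 against 2.04 FPKM and BRIP1 at 2.98 against 3.84, with log2 changes of 0.24 and −0.28. No member was 2-fold lower on either scale.

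Among p53 targets, in a line with mutant p53, 4 of 28 were at least 2-fold higher and 1 lower, with a median log2 change of 0.31, and after rescaling 3 were higher and 3 lower with a median of 0.01. POLH, a translesion DNA polymerase, was at 14.5 FPKM in the labelled library and 3.66 in the input, with 5.26 in the immunoprecipitate, 16.6 in si-NC and 14.9 in si-LY6E-DT, a log2 change of 1.73. AEN, a nuclease, was at 7.86 FPKM in the labelled library and 1.91 in the input, with 2.66 in the immunoprecipitate, 7.88 in si-NC and 10.1 in si-LY6E-DT, a log2 change of 1.61. POLH and AEN were low in the input and the immunoprecipitate, while the labelled library was near si-NC. GADD45A, a stress-induced growth inhibitor, was at 9.21 FPKM in the labelled library and 24.04 in the input, with 2.76 in the immunoprecipitate, 55.2 in si-NC and 120.3 in si-LY6E-DT, a log2 change of −1.29. MDM2, the ubiquitin ligase of p53, was at 5.09 against 4.49 FPKM. GDF15, a secreted stress cytokine, was at 36.1 FPKM in the labelled library and 28.9 in the input, with 3.61 in the immunoprecipitate, 0.257 in si-NC and 1.54 in si-LY6E-DT, high in both libraries of the contrast and low in the silencer pair.

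Among apoptosis regulators, 4 of 32 were at least 2-fold higher and 1 lower, with a median log2 change of 0.27, and after rescaling 3 were higher and 3 lower with a median of 0.03. BAK1, a pore-forming effector, was at 61.98 FPKM in the labelled library and 11.3 in the input, with 3.62 in the immunoprecipitate, 18.8 in si-NC and 18.8 in si-LY6E-DT, a log2 change of 2.36. FADD, the adaptor of death receptors, was at 68.4 against 32.4 FPKM in the input, a log2 change of 1.05 as deposited and 0.70 rescaled. BAK1 and FADD, which promote cell death, were above the input, and BIRC3, an inhibitor of it, was below. PEA15, given above, was the member furthest above the input, at 3.60. API5, an inhibitor of apoptosis outside this list, was also higher, at 2.99, so inhibitors lay on both sides of the input.

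NRF2 is the transcription factor that drives antioxidant genes through antioxidant response elements, and TXNRD1 is 1 of its targets. Among the NRF2, thioredoxin and glutathione genes, 3 of 43 were at least 2-fold higher and 0 lower, with a median log2 change of 0.34, and after rescaling 2 were higher and 4 lower with a median of −0.02. SQSTM1, an autophagy receptor, was at 159 against 80.5 FPKM in the input, a log2 change of 0.97. OSGIN1, which shares exons with another gene, was at 9.73 against 2.598 FPKM in the input, a log2 change of 1.58. NQO1, a quinone reductase, was at 91.5 against 51.1 FPKM and GCLM, a subunit of the enzyme that starts glutathione synthesis, at 4.53 against 7.92, neither 2-fold as deposited. TXNRD1 therefore stood apart within its own list, with a log2 change of 3.82 where the next member, OSGIN1, was at 1.58. The 2 RefSeq promoter windows of TXNRD1 are printed because it was the member furthest from the input and its promoter is a known target of NRF2. They are on GRCh38.p14, plus strand, with matches to the core TGACNNNGC on either strand in capitals.
TXNRD1, chr12:104215529-104215828: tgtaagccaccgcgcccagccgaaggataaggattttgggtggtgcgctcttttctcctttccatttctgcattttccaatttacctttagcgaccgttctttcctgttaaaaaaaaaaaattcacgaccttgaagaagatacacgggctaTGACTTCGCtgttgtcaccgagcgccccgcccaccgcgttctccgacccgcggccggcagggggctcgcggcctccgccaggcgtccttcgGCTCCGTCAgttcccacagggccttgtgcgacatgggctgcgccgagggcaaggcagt
TXNRD1, chr12:104286782-104287081: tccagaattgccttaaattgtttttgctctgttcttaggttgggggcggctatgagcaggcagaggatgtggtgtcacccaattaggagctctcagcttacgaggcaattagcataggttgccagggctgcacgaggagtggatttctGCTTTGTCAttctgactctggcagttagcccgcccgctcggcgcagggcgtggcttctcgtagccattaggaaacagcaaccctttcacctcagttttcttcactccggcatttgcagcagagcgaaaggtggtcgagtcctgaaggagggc
The first window held 2 matches and the second 1. Of 35116 RefSeq promoter windows, 13.3% held at least 1 match, and of 8066 tested genes with a window 19.7% had a match in at least 1 of theirs. A match is a description of letters, not of binding.

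Heat shock proteins and the chaperones of the endoplasmic reticulum lay on opposite sides of the median of all genes, as deposited and rescaled. Among heat shock proteins, 7 of 24 were at least 2-fold higher and 0 lower, with a median log2 change of 0.42, and after rescaling 3 were higher and 0 lower with a median of 0.07. HSPH1, a co-chaperone of HSP70, was at 34.7 FPKM in the labelled library and 14.1 in the input, with 11.3 in the immunoprecipitate, 22.8 in si-NC and 20.3 in si-LY6E-DT, a log2 change of 1.24 as deposited and 0.90 rescaled. HSF1, the transcription factor of the heat shock response, was at 13.7 FPKM in the labelled library and 4.19 in the input, with 2.02 in the immunoprecipitate, 11.9 in si-NC and 9.75 in si-LY6E-DT, a log2 change of 1.499. HSPA8, the constitutive HSP70, was at 359.8 against 168 FPKM in the input, a log2 change of 1.09 as deposited and 0.74 rescaled. HSPA1A and HSPA1B, which are nearly identical and share reads, were both higher, at 1.37 and 1.51. Of the 7 higher members HSPA1A, HSPA1B and HSF1 remained 2-fold higher after rescaling.

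Among chaperones of the endoplasmic reticulum, 1 of 18 was at least 2-fold higher and 4 lower, with a median log2 change of −0.46, and after rescaling 1 was higher and 8 lower with a median of −0.82. HSP90B1, the HSP90 of the endoplasmic reticulum, was at 58.4 FPKM in the labelled library and 234 in the input, with 38.3 in the immunoprecipitate, 213 in si-NC and 198 in si-LY6E-DT, a log2 change of −1.99. HSPA5, the HSP70 of the endoplasmic reticulum, also called BiP, was at 190.2 FPKM in the labelled library and 526 in the input, with 43.3 in the immunoprecipitate, 260.3 in si-NC and 282 in si-LY6E-DT, a log2 change of −1.46. PDIA3, a disulfide isomerase, was at 81.3 FPKM in the labelled library and 172 in the input, with 28.4 in the immunoprecipitate, 99.8 in si-NC and 103 in si-LY6E-DT, a log2 change of −1.07. For all 3 the labelled library was below si-NC and si-LY6E-DT, and the input above them. TXNDC5 was the 1 member at least 2-fold higher, at 3.69, but it shares exons with another gene. Among ATF4 and unfolded protein response genes, 1 of 30 was at least 2-fold higher and 0 lower, with a median log2 change of 0.21, and after rescaling 1 was higher and 2 lower with a median of −0.03. PSAT1, an enzyme of serine synthesis, was at 81.1 FPKM in the labelled library and 21.8 in the input, with 50.6 in the immunoprecipitate, 52.4 in si-NC and 58.1 in si-LY6E-DT, a log2 change of 1.85. ATF4, the factor itself, was at 96.3 against 176 FPKM in the input, a log2 change of −0.87.

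Among output and feedback genes of the ERK pathway, 2 of 36 were at least 2-fold higher and 4 lower, with a median log2 change of 0.01, and after rescaling 2 were higher and 4 lower with a median of −0.33. DUSP6, a phosphatase of ERK, was at 14.4 FPKM in the labelled library and 52.8 in the input, with 28.8 in the immunoprecipitate, 10.5 in si-NC and 12.9 in si-LY6E-DT, a log2 change of −1.80. SPRY1, an inhibitor of receptor tyrosine kinase signalling, was at 2.79 FPKM in the labelled library and 8.22 in the input, with 11.8 in the immunoprecipitate, 1.39 in si-NC and 1.47 in si-LY6E-DT, a log2 change of −1.28. EGR1, an immediate early transcription factor, was at 0.621 FPKM in the labelled library and 4.202 in the input, with 5.03 in the immunoprecipitate, 0.498 in si-NC and 2.58 in si-LY6E-DT, a log2 change of −1.68. DUSP6 and EGR1 in the labelled library were near si-NC, and the input was above them. KLF6, a zinc finger transcription factor, was at 27.4 FPKM in the labelled library and 5.39 in the input, with 35.1 in the immunoprecipitate, 32.1 in si-NC and 21.4 in si-LY6E-DT, a log2 change of 2.15. For KLF6 the input alone was low. DUSP4 was at 66.2 FPKM in the labelled library and 81.2 in the input, with 136 in the immunoprecipitate, 6.56 in si-NC and 8.28 in si-LY6E-DT, a log2 change of −0.29. DUSP5 was at 70.97 FPKM in the labelled library and 90.95 in the input, with 175 in the immunoprecipitate, 9.17 in si-NC and 13.7 in si-LY6E-DT, a log2 change of −0.35. These 2 phosphatases were high in the labelled library, the input and the immunoprecipitate and low in si-NC and si-LY6E-DT.

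MYC acts with MAX, and the MXD proteins compete with MYC for it. In this network, 2 of 12 were at least 2-fold higher and 0 lower, with a median log2 change of 0.36, and after rescaling 2 were higher and 1 lower with a median of 0.07. MAX, the shared partner, was at 24.1 FPKM in the labelled library and 13.01 in the input, with 28.2 in the immunoprecipitate, 10.1 in si-NC and 8.38 in si-LY6E-DT, a log2 change of 0.84. MXD1, which shares exons with another gene, was at 3.23 FPKM in the labelled library and 0.0529 in the input, with 12.5 in the immunoprecipitate, 1.03 in si-NC and 1.02 in si-LY6E-DT, a log2 change of 2.01. The other 9 members lay between −0.74 for MYCBP and 0.92 for MYCBP2 as deposited, all under 2-fold. Among short-lived regulatory mRNAs, 5 of 30 were at least 2-fold higher and 3 lower, with a median log2 change of 0.01, and after rescaling 4 were higher and 6 lower with a median of −0.33. ID3, an inhibitor of differentiation factors, was at 25.02 against 9.35 FPKM in the input, a log2 change of 1.33. The higher ones were MYC, CDKN1A, KLF6, ID1 and ID3, and the lower ones EGR1, ZFP36 and CXCL2.

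Ribosome biogenesis is a process that MYC drives, and among its genes, 5 of 51 were at least 2-fold higher and 1 lower, with a median log2 change of 0.24, and after rescaling 3 were higher and 5 lower with a median of −0.11. NOP14, a factor of the small subunit, was at 81.5 FPKM in the labelled library and 30.03 in the input, with 9.34 in the immunoprecipitate, 44.5 in si-NC and 48.1 in si-LY6E-DT, a log2 change of 1.41. POLR1A, the largest subunit of RNA polymerase I, was at 10.6 FPKM in the labelled library and 3.62 in the input, with 6.902 in the immunoprecipitate, 9.74 in si-NC and 11.9 in si-LY6E-DT, a log2 change of 1.33. BYSL, a factor of the small subunit, was at 47.3 against 17.2 FPKM in the input, a log2 change of 1.41. NOP14, POLR1A and BYSL kept 2-fold after rescaling. Among cytosolic ribosomal proteins, 3 of 81 were at least 2-fold higher and 2 lower, with a median log2 change of −0.18, and after rescaling 2 were higher and 9 lower with a median of −0.54. RPLP0, a stalk protein, was at 185 against 57.6 FPKM in the input, a log2 change of 1.66. RPL7 was at 125 against 279 FPKM in the input, a log2 change of −1.16. The large ribosomal protein list was mostly within 2-fold of the input, with a median below that of all genes on both scales. Among translation factors, 2 of 46 were at least 2-fold higher and 4 lower, with a median log2 change of 0.26, and after rescaling 2 were higher and 5 lower with a median of −0.09. EIF3E, a subunit of eIF3, was at 40.2 against 130.4 FPKM in the input, a log2 change of −1.67. EIF5, which triggers GTP hydrolysis at start codons, was at 11.5 against 27.7 FPKM in the input, a log2 change of −1.20. EIF4E2, a cap-binding repressor, was at 12.3 against 3.91 FPKM in the input, a log2 change of 1.43. The 2 initiation factors EIF3E and EIF5 were thus below the input and the repressor above it.

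The mRNAs encoded in mitochondrial DNA were the lowest list after the cystatins, while nuclear genes of the respiratory chain lay near the median of all genes. Among the mitochondrial mRNAs, 0 of 13 were at least 2-fold higher and 12 lower, with a median log2 change of −1.92, and after rescaling 0 were higher and 12 lower with a median of −2.28. MT-CYB, a subunit of complex III, was at 980.3 FPKM in the labelled library and 6083 in the input, with 480.3 in the immunoprecipitate, 333 in si-NC and 462 in si-LY6E-DT, a log2 change of −2.63. MT-CO1, the catalytic subunit of complex IV, was at 3024 FPKM in the labelled library and 9519 in the input, with 1959 in the immunoprecipitate, 1928 in si-NC and 2152 in si-LY6E-DT, a log2 change of −1.65. MT-ND3, a subunit of complex I, was at 1171 FPKM in the labelled library and 1716 in the input, with 206 in the immunoprecipitate, 878 in si-NC and 629.7 in si-LY6E-DT, a log2 change of −0.55. The input was the highest library for all 3. MT-ND3 was the only member under 2-fold, and MT-ND4, MT-ND4L, MT-ATP6, MT-ATP8 and MT-CO3 share exons with a neighbour. The other 10 members lay between −2.43 for MT-ND4 and −1.44 for MT-ND6. Among nuclear genes of the respiratory chain, 6 of 76 were at least 2-fold higher and 0 lower, with a median log2 change of 0.19, and after rescaling 1 was higher and 5 lower with a median of −0.15. SDHB, a subunit of complex II, was at 43.4 against 18.3 FPKM in the input, a log2 change of 1.20 as deposited and 0.86 rescaled. NDUFB5, a subunit of complex I, was at 12.9 against 5.14 FPKM in the input, a log2 change of 1.18 as deposited and 0.88 rescaled. Among mitochondrial ribosomal proteins, 13 of 78 were at least 2-fold higher and 2 lower, with a median log2 change of 0.18, and after rescaling 4 were higher and 6 lower with a median of −0.14. MRPS12 was at 37.3 FPKM in the labelled library and 8.33 in the input, with 0.747 in the immunoprecipitate, 22.1 in si-NC and 20.6 in si-LY6E-DT, a log2 change of 2.04. MRPS11 was at 10.5 FPKM in the labelled library and 3.21 in the input, with 0.492 in the immunoprecipitate, 3.102 in si-NC and 3.26 in si-LY6E-DT, a log2 change of 1.45. MRPS12 was low in the input and the immunoprecipitate, while for MRPS11 the labelled library was above all the others. COX7A2L, given above, was the only nuclear respiratory gene that kept 2-fold after rescaling.

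Among hypoxia and glycolysis genes, 1 of 42 was at least 2-fold higher and 4 lower, with a median log2 change of 0.06, and after rescaling 1 was higher and 5 lower with a median of −0.25. BNIP3L, a mitophagy receptor, was at 9.58 FPKM in the labelled library and 45.7 in the input, with 194 in the immunoprecipitate, 23.6 in si-NC and 23.5 in si-LY6E-DT, a log2 change of −2.14. PFKFB3, an enzyme that drives glycolysis, was at 15.9 FPKM in the labelled library and 2.65 in the input, with 19.97 in the immunoprecipitate, 10.1 in si-NC and 8.56 in si-LY6E-DT, a log2 change of 2.22. PLOD2, a collagen lysyl hydroxylase, was at 19.5 against 49.6 FPKM in the input, a log2 change of −1.31. PFKFB3 was low in the input, and BNIP3L was low in the labelled library. Among replication and S phase genes, 4 of 48 were at least 2-fold higher and 1 lower, with a median log2 change of 0.38, and after rescaling 2 were higher and 2 lower with a median of 0.04. MCM10, a factor of DNA replication, was at 17.1 FPKM in the labelled library and 4.82 in the input, with 7.55 in the immunoprecipitate, 11.6 in si-NC and 9.43 in si-LY6E-DT, a log2 change of 1.64. ORC6, a subunit of the origin recognition complex, was at 22.2 FPKM in the labelled library and 7.51 in the input, with 7.18 in the immunoprecipitate, 7.62 in si-NC and 7.202 in si-LY6E-DT, a log2 change of 1.45. MCM2, a subunit of the replicative helicase, was at 46.02 against 17.7 FPKM in the input, a log2 change of 1.33 as deposited and 0.99 rescaled. ORC6 was higher in the labelled library than in the other 4.

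Among mitosis genes, 4 of 44 were at least 2-fold higher and 4 lower, with a median log2 change of −0.05, and after rescaling 3 were higher and 11 lower with a median of −0.39. NDC80, a kinetochore protein, was at 17.03 FPKM in the labelled library and 56.1 in the input, with 7.61 in the immunoprecipitate, 41.4 in si-NC and 33.4 in si-LY6E-DT, a log2 change of −1.66. NUF2, its partner, was at 16.4 FPKM in the labelled library and 49.5 in the input, with 4.39 in the immunoprecipitate, 32.5 in si-NC and 25.96 in si-LY6E-DT, a log2 change of −1.54. NDC80 and NUF2 were highest in the input. ECT2, an activator of RhoA at division, was at 17.7 FPKM in the labelled library and 4.33 in the input, with 37.5 in the immunoprecipitate, 31.8 in si-NC and 26.3 in si-LY6E-DT, a log2 change of 1.81. MAD2L1, a checkpoint protein, was at 13.9 FPKM in the labelled library and 3.29 in the input, with 22.7 in the immunoprecipitate, 13.5 in si-NC and 10.4 in si-LY6E-DT, a log2 change of 1.80. BIRC5, survivin, was at 12.1 against 3.601 FPKM in the input, a log2 change of 1.51. ECT2 and MAD2L1 were lowest in the input. CENPF was at 9.61 FPKM in the labelled library and 24.7 in the input, with 3.47 in the immunoprecipitate, 71.1 in si-NC and 68.3 in si-LY6E-DT, a log2 change of −1.28, so that both libraries of the contrast lay far below si-NC. Among clustered histone genes, whose mRNAs carry no poly(A) tail in cycling cells, 1 of 24 was at least 2-fold higher and 2 lower, with a median log2 change of 0.35, and after rescaling 0 were higher and 2 lower with a median of 0.06. HIST1H4C was at 2.997 against 8.35 FPKM in the input, a log2 change of −1.23. HIST1H2BJ was at 5.67 against 2.32 FPKM in the input, a log2 change of 1.01 as deposited and 0.76 rescaled. HIST1H4C was at 88.2 FPKM in the immunoprecipitate.

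Among cystatins, with latexin, 0 of 6 were at least 2-fold higher and 4 lower, with a median log2 change of −2.60, and after rescaling 0 were higher and 5 lower with a median of −2.97. CST3, the widely expressed cystatin C, was at 35.7 against 58.3 FPKM in the input, a log2 change of −0.69. CSTB, a cytosolic cystatin, was at 51.9 against 41.7 FPKM in the input, a log2 change of 0.31. The 4 lower members were thus LXN, CST1, CST2 and CST4, and CSTB pointed the other way. Among the cysteine proteases they inhibit and other lysosomal enzymes, 4 of 35 were at least 2-fold higher and 0 lower, with a median log2 change of 0.02, and after rescaling 1 was higher and 3 lower with a median of −0.31. NEU1, the lysosomal sialidase, was at 33.7 FPKM in the labelled library and 10.2 in the input, with 2.57 in the immunoprecipitate, 8.56 in si-NC and 13.1 in si-LY6E-DT, a log2 change of 1.63. SMPD1, acid sphingomyelinase, was at 10.7 against 3.98 FPKM in the input, a log2 change of 1.23 as deposited and 0.95 rescaled. CTSD, cathepsin D, an aspartic protease that shares exons with another gene, was at 190.4 against 75.1 FPKM in the input, a log2 change of 1.33 as deposited and 0.98 rescaled. No cysteine cathepsin was 2-fold higher or lower as deposited.

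Among genes of the insulin-like growth factor system, 0 of 10 were at least 2-fold higher and 1 lower, with a median log2 change of −0.38, and after rescaling 0 were higher and 3 lower with a median of −0.73. IGFBP6, a binding protein, was at 23.9 against 46.2 FPKM in the input, a log2 change of −0.92. IGFBP3, the main carrier in serum, was at 3.42 against 6.52 FPKM in the input, a log2 change of −0.77. Among the protein kinase A system, 3 of 22 were at least 2-fold higher and 0 lower, with a median log2 change of 0.12, and after rescaling 3 were higher and 2 lower with a median of −0.15. PRKACA, a catalytic subunit, was at 8.38 FPKM in the labelled library and 16.1 in the input, with 12.2 in the immunoprecipitate, 7.07 in si-NC and 9.13 in si-LY6E-DT, a log2 change of −0.86. PRKAR2A, a type II regulatory subunit, was at 7.26 FPKM in the labelled library and 10.7 in the input, with 24.99 in the immunoprecipitate, 16.3 in si-NC and 15.6 in si-LY6E-DT, a log2 change of −0.51. AKAP1, an anchor at mitochondria, was at 17.3 FPKM in the labelled library and 5.93 in the input, with 2.41 in the immunoprecipitate, 10.3 in si-NC and 13.9 in si-LY6E-DT, a log2 change of 1.40. PDE4A, a cyclic AMP phosphodiesterase, was at 7.48 against 2.49 FPKM in the input, a log2 change of 1.28. Of the subunits of the kinase itself, only PRKAR1A was 2-fold higher, and the catalytic subunit PRKACB was at 1.904 against 1.74 FPKM. The other 16 members lay between −0.73 for PRKAR2B and 0.98 for PRKAR1B, none of them 2-fold from the input as deposited.

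Among Rab GTPases, 8 of 44 were at least 2-fold higher and 1 lower, with a median log2 change of 0.16, and after rescaling 6 were higher and 3 lower with a median of −0.12. RAB31, a Rab of the trans-Golgi and endosomes, was at 16.5 FPKM in the labelled library and 1.93 in the input, with 14.4 in the immunoprecipitate, 1.06 in si-NC and 7.57 in si-LY6E-DT, a log2 change of 2.58. RAB20 was at 11.2 FPKM in the labelled library and 2.85 in the input, with 1.33 in the immunoprecipitate, 8.9 in si-NC and 6.44 in si-LY6E-DT, a log2 change of 1.67. RAB31 was near the immunoprecipitate and far above the input and si-NC. RAB32 and RAB8B, given above, were the members at either end. Among tubulins, 2 of 12 were at least 2-fold higher and 0 lower, with a median log2 change of 0.46, and after rescaling 2 were higher and 0 lower with a median of 0.16. TUBA1A was at 34.5 against 9.79 FPKM in the input, a log2 change of 1.72. TUBB2A was at 55.6 against 17.6 FPKM in the input, a log2 change of 1.61. TUBB4B was at 389 against 211 FPKM in the input, a log2 change of 0.88. The median of the tubulins was the highest among the lists on the deposited scale, and TUBA1A and TUBB2A kept 2-fold after rescaling. Among proteasome subunits, 4 of 46 were at least 2-fold higher and 1 lower, with a median log2 change of 0.34, and after rescaling 2 were higher and 4 lower with a median of 0.00. PSME3, a nuclear activator of the proteasome, was at 47.4 FPKM in the labelled library and 6.64 in the input, with 9.22 in the immunoprecipitate, 28.9 in si-NC and 25.3 in si-LY6E-DT, a log2 change of 2.66. PSMD11, a lid subunit, was at 56.1 against 23.2 FPKM in the input, a log2 change of 1.24 as deposited and 0.90 rescaled. PSME3 stood highest in the labelled library. Among genes of cholesterol synthesis, 2 of 32 were at least 2-fold higher and 0 lower, with a median log2 change of 0.31, and after rescaling 2 were higher and 4 lower with a median of −0.05. LSS, lanosterol synthase, was at 19.1 against 6.98 FPKM in the input, a log2 change of 1.33.

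Among cytokines, chemokines and NF-kB genes, 4 of 29 were at least 2-fold higher and 5 lower, with a median log2 change of −0.14, and after rescaling 1 was higher and 9 lower with a median of −0.45. IL1B, the cytokine interleukin-1 beta, was at 22.1 FPKM in the labelled library and 89.4 in the input, with 24.98 in the immunoprecipitate, 0.917 in si-NC and 2.14 in si-LY6E-DT, a log2 change of −1.97. CXCL8, the neutrophil chemokine interleukin-8, was at 11.7 FPKM in the labelled library and 23.1 in the input, with 46.3 in the immunoprecipitate, 49.4 in si-NC and 67.9 in si-LY6E-DT, a log2 change of −0.92. CSF2, the growth factor GM-CSF, was at 19.2 FPKM in the labelled library and 8.11 in the input, with 2.41 in the immunoprecipitate, 66.7 in si-NC and 57.8 in si-LY6E-DT, a log2 change of 1.15 as deposited and 0.83 rescaled. IL1B was highest in the input and low in the silencer pair, while CXCL8 and CSF2 were highest there. TNFAIP2 was at 12.5 FPKM in the labelled library and 1.88 in the input, with 9.71 in the immunoprecipitate, 9.96 in si-NC and 12.96 in si-LY6E-DT, a log2 change of 2.23. NFKB1, a subunit of NF-kB, was at 12.02 FPKM in the labelled library and 4.38 in the input, with 2.77 in the immunoprecipitate, 9.2 in si-NC and 13.2 in si-LY6E-DT, a log2 change of 1.28 as deposited and 0.99 rescaled. TNFAIP2 and NFKB1 were lower in the input than in si-NC.

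Among extracellular matrix genes, 1 of 28 was at least 2-fold higher and 2 lower, with a median log2 change of −0.13, and after rescaling 0 were higher and 7 lower with a median of −0.42. CYR61, a matricellular protein and YAP target, was at 217 against 452 FPKM in the input, a log2 change of −1.06. COL12A1, a fibril-associated collagen, was at 5.26 against 1.86 FPKM in the input, a log2 change of 1.13 as deposited and 0.91 rescaled. COL12A1 was at 27.8 FPKM in si-NC, so both libraries of the contrast were low. Among matrix proteases and the urokinase system, 2 of 22 were at least 2-fold higher and 2 lower, with a median log2 change of 0.03, and after rescaling 1 was higher and 3 lower with a median of −0.30. PLAT, the tissue plasminogen activator, was at 7.01 against 27.6 FPKM in the input, a log2 change of −1.84. MMP3, stromelysin, was at 7.56 FPKM in the labelled library and 0.703 in the input, with 0.0969 in the immunoprecipitate and no entry for si-NC and si-LY6E-DT, a log2 change of 2.33. ADAM9, a membrane metalloprotease, was at 13.2 against 5.09 FPKM in the input, a log2 change of 1.23 as deposited and 0.93 rescaled. PLAT and TFPI were the members at least 2-fold lower. Among YAP/TAZ and TGF-beta targets, 5 of 28 were at least 2-fold higher and 3 lower, with a median log2 change of 0.25, and after rescaling 3 were higher and 3 lower with a median of −0.10. TEAD1, the DNA-binding partner of YAP, was at 15.1 FPKM in the labelled library and 2.37 in the input, with 74.01 in the immunoprecipitate, 33.9 in si-NC and 28.96 in si-LY6E-DT, a log2 change of 2.26. NT5E, the ecto-enzyme CD73, was at 145 FPKM in the labelled library and 43.01 in the input, with 349.6 in the immunoprecipitate, 128 in si-NC and 122 in si-LY6E-DT, a log2 change of 1.73. PTPN14, a phosphatase that restrains YAP, was at 2.199 against 6.41 FPKM in the input, a log2 change of −1.21. TEAD1 and NT5E were above the input and highest in the immunoprecipitate. Among epithelial and mesenchymal genes, 4 of 25 were at least 2-fold higher and 4 lower, with a median log2 change of −0.01, and after rescaling 4 were higher and 5 lower with a median of −0.35. ITGA2, an integrin that binds collagen, was at 7.57 FPKM in the labelled library and 0.928 in the input, with 46.9 in the immunoprecipitate, 6.82 in si-NC and 7.04 in si-LY6E-DT, a log2 change of 2.15. OCLN, a tight junction protein, was at 2.14 FPKM in the labelled library and 0.183 in the input, with 48.2 in the immunoprecipitate, 0.168 in si-NC and 0.175 in si-LY6E-DT, a log2 change of 1.41. KRT80, a keratin, was at 17.9 against 5.396 FPKM in the input, a log2 change of 1.56. The 4 lower members, named after their values were seen, were the keratin KRT19, the junction genes JUP and CLDN7, of which CLDN7 shares exons with another gene, and S100A4. KRT19, CLDN7 and S100A4 had log2 changes of −1.37, −1.16 and −1.12, and JUP was at 0.727 FPKM in the labelled library and 2.46 in the input. ITGA2 and TEAD1 were low in the input alone. OCLN was high in the immunoprecipitate and near 0 in the input, si-NC and si-LY6E-DT.

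**Figure D4:**
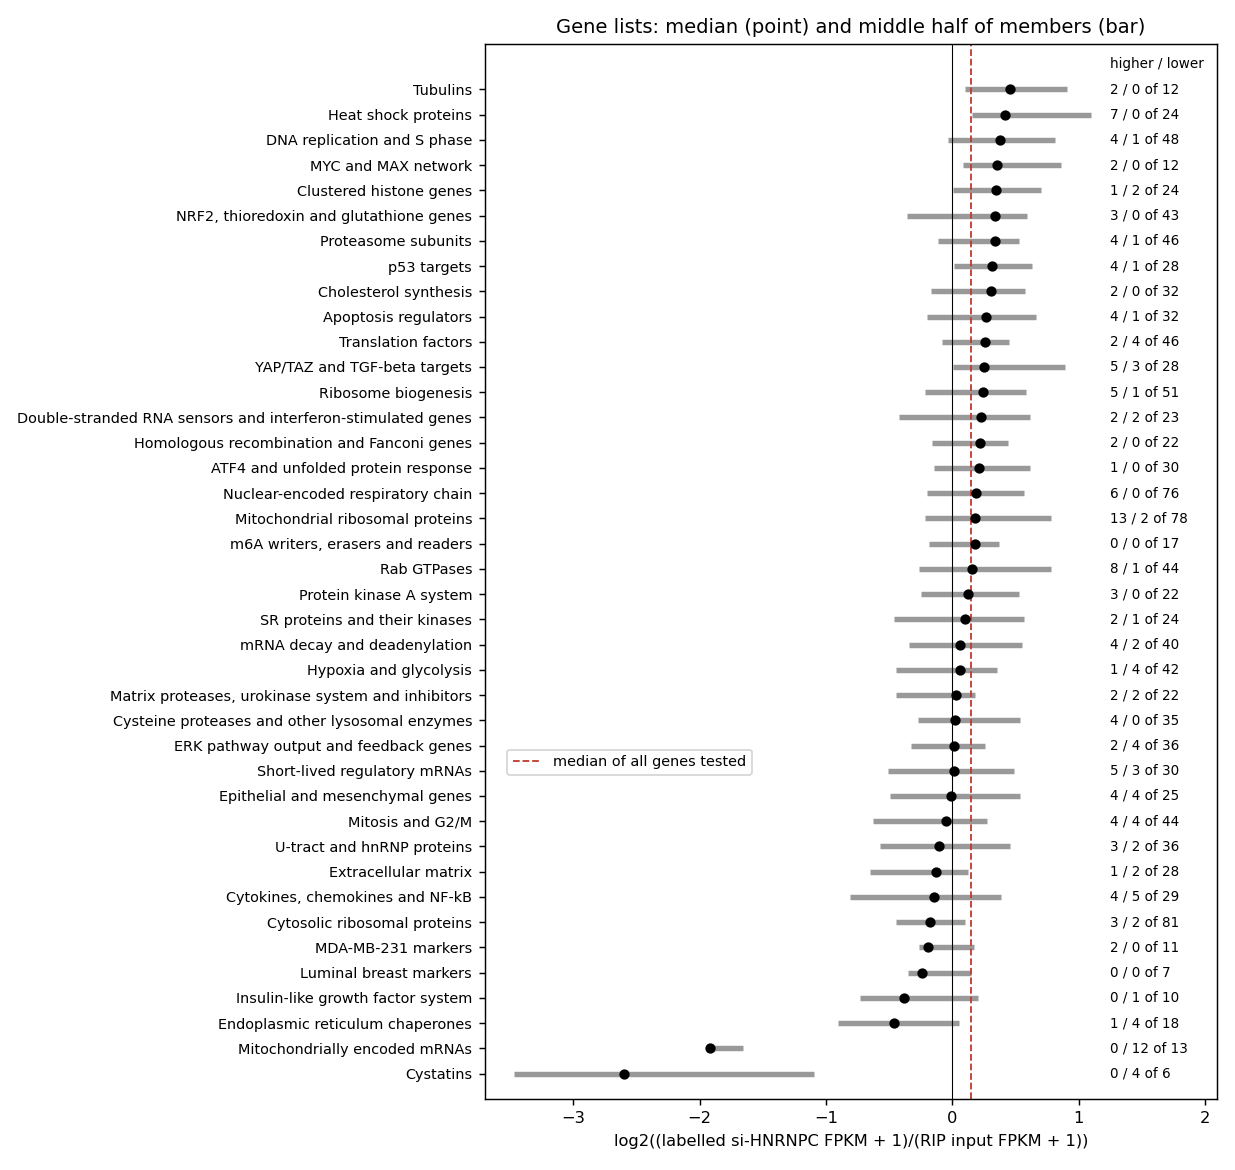
Median log2 change (point) and the range from the lower to the upper quartile of members (bar) for each gene list with at least 5 members tested, library labelled si-HNRNPC over RIP input, with the counts of members at least 2-fold higher and lower at the right and a dashed line at the median of all genes. The cystatins and the mitochondrially encoded mRNAs have the lowest medians, −2.60 and −1.92, and the median of all 10185 genes is 0.15.

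Markers of other cell types were read the same way. The 2 leukocyte markers that passed, CD68 and LAPTM5, are the lysosomal proteins of that list. CD68 was at 74.8 FPKM in the labelled library and 63.3 in the input, with 17.4 in the immunoprecipitate, 4.86 in si-NC and 7.86 in si-LY6E-DT, a log2 change of 0.24. LAPTM5 was at 37.3 FPKM in the labelled library and 45.97 in the input, with 4.01 in the immunoprecipitate, 3.91 in si-NC and 2.64 in si-LY6E-DT, a log2 change of −0.30. Both were high in the labelled library and the input and low in the silencer pair, while PTPRC, CD3E and SPI1 had no entry. The summed level of the list was 113 FPKM in the labelled library and 112 in the input, against 23.6 in the immunoprecipitate, 8.77 in si-NC and 10.5 in si-LY6E-DT. The fibroblast markers summed to 0 and 1.26 FPKM in the contrast. Luminal markers summed to 88.4 and 91.8 FPKM, with 0 of 7 called and ESR1 and PGR without an entry. CAV1, the caveolar coat protein and a marker of the line, was at 43.4 FPKM in the labelled library and 8.12 in the input, with 228 in the immunoprecipitate, 101 in si-NC and 106 in si-LY6E-DT, a log2 change of 2.28. CAV2 was at 6.82 against 1.13 FPKM in the input, a log2 change of 1.88. These 2 were the MDA-MB-231 markers furthest from the input. The part of other cells in these differences was not tested.

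The change from the input moved with base composition across genes. Over 10119 genes with an annotated transcript, Spearman's rho between the log2 change and GC content was 0.286. The median change went from −0.14 in the lowest to 0.36 in the highest of 5 equal groups of genes by GC. In the lowest group 4.55% of genes were higher and 7.21% lower, and in the highest group 12.9% and 1.73%. Transcript length showed little relation to the change, with a rho of 0.039. The share of genes 2-fold lower was nonetheless 5.98% in the shortest and 2.67% in the longest of 5 equal groups. In 3′ untranslated regions, rho with the share of A and U was −0.297 over 9949 genes, and with the density of runs of at least 5 uridines −0.166 over 9371 genes. Within the 5 groups by GC content the rho with U runs was 0.004, 0.012, −0.010, −0.034 and −0.032, far from the value over all genes. These are correlations across genes within 1 pair of libraries, genes are not independent replicates, and all values share the same 2 totals. The part of base composition in the changes of single genes was not tested.

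**Figure D5:**
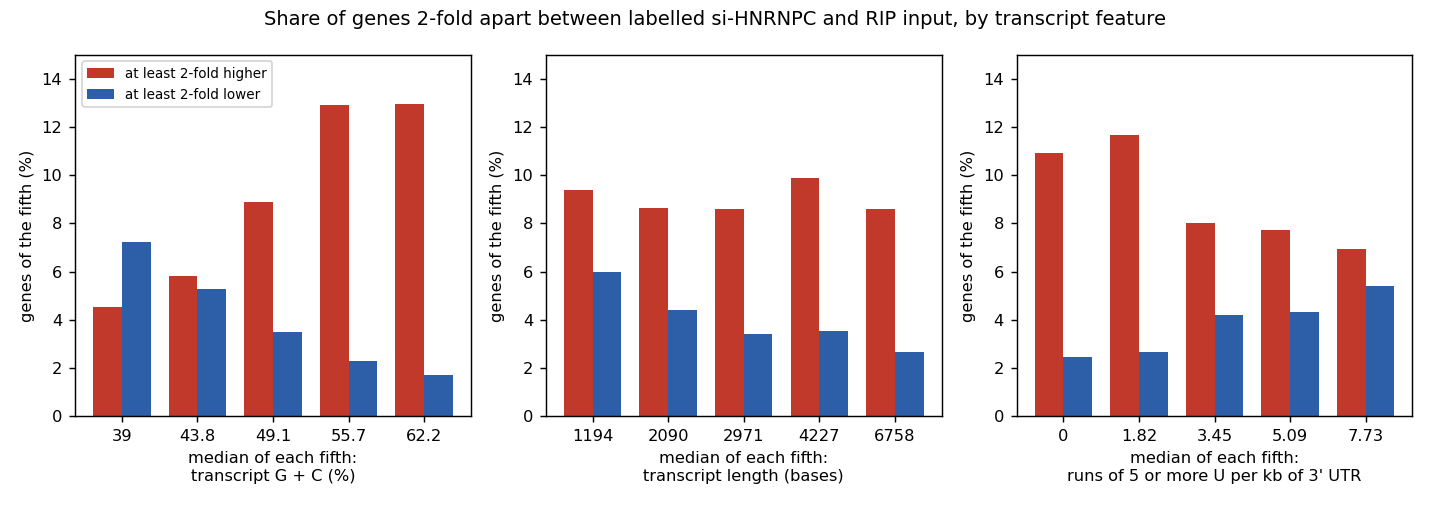
Share of genes, in percent, that were at least 2-fold higher (red) or lower (blue) in the library labelled si-HNRNPC than in the RIP input, in 5 equal groups of genes by transcript GC content (left), transcript length (middle) and density of U runs in the 3′ untranslated region (right), with the median of each group under its bars. Over GC content the higher share goes from 4.55% to 12.9% and the lower share from 7.21% to 1.73%. Over length the higher share stays between 8.60% and 9.88%, while the lower share is 5.98% in the shortest and 2.67% in the longest group.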

How the data were processed

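RNA abundance was measured in 5 libraries of MDA-MB-231 cells, 1 per group. The deposited values are FPKM per gene, 1 table per library, per the file headers. Per the submitters' processing notes, StringTie 1.3.3, HISAT2 2.1.0, cutadapt 1.17, FastQC 0.11.7 and the build GRCh37 were used, with no roles or settings given. No whole-read steps were seen among low values, so depth is unknown, no counting interval is given and no count test was run. Gene IDs were matched to GENCODE 29 on GRCh38 for positions, 3′ untranslated regions and shared exons, and no coordinates were converted. RefSeq promoter windows were found for 33 of 43 tested genes of the NRF2 list, under 80%, so their share is not reported. Genes with exons in common with a second same-strand coding gene are called uncertain.

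The members, the 42 gene lists and the alternatives were chosen with earlier results of these data known. Named genes are HNRNPC, the 15 genes furthest above and below the input with a mean of at least 5 FPKM and no shared exons, the 10 furthest above and below the other 4 libraries, and the 4 list members furthest from the input, with all members of the MYC, cystatin, protein kinase A and mitochondrial lists eligible. BIRC5, BRCA1, BRIP1, CENPF, CLDN7, CSF2, CXCL8, DDX58, DUSP4, DUSP5, FADD, GCLM, GDF15, HNRNPA2B1, HSPA8, IFIH1, JUP, KRT19, MDM2, NQO1, PDIA3, S100A4, SPRY1, U2AF1 and U2AF2 were named outside this rule, after their values were seen. Some genes that the rule takes are not reported here. Scripts ran in Python 3.11.15 with pandas 2.3.3, numpy 2.4.6 and matplotlib 3.10.9 and were tested on simulated data.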

Additional observations from a re-analysis of the deposited data

How the results depend on the processing

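The counts of genes 2-fold from the input depended on the scale. With a pseudocount of 0.1, 1369 were higher and 665 lower, and with 5, 334 were higher and 148 lower. Leaving mitochondrially encoded mRNAs out of the summed FPKM gave 518 higher and 1028 lower, and also leaving out ribosomal protein and the 20 highest genes gave 516 and 1161. Centring on the median gave 665 higher and 621 lower, and quantile normalization 652 and 623, so the split was then close to even. Thresholds of 1.5-fold and 4-fold gave 2400 and 106 higher, 1246 and 32 lower. Genes of the labelled library beyond the other 4 numbered 80 above and 53 below when rescaled, and 176 and 89 without the immunoprecipitate. At 1.5-fold they numbered 568 above and 177 below. For the input these were 242 above and 144 below when rescaled, and 137 and 369 without the immunoprecipitate. At 1.5-fold the input had 303 above and 535 below. Alternatives for genes beyond the other 4 were chosen after seeing the data. Each named gene was counted once in each alternative setting where it passed. Of these values, 1665 moved by less than 1.5-fold and 82 moved further. The filters on low values leave a change as it is, and centring and rescaling shift nearly all genes alike. The 1665 therefore does not measure robustness. The moved values were 19 with a pseudocount of 0.1, 53 with 5 and 10 under quantile normalization. MT-ND4L turned to 0.0595 under quantile normalization, and the cause was not tested. Of 164 named genes 2-fold apart, 142 remained so after rescaling and 121 with a pseudocount of 5. No replicate could be left out, since a group has 1 library. No paired analysis was possible because the groups share no replicates.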

Other observations

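The median log2 change from the input differed between chromosomes, from −0.03 over 457 genes of chromosome 5 to 0.38 over 230 genes of chromosome 22, among the nuclear chromosomes.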
